A study of Mus musculus with 36 samples.

Results

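The alkaline phosphatase genes Alppl2, Alpl, Alpi and Akp3, were followed in single mouse blastocysts, each derived from 1 of the 2 blastomeres of an embryo split after its first cleavage. The genes were taken by symbol from the expression table, from which 40160 of 65956 transcript clusters, the units of the array that stand for a gene, were tested because they carry a symbol. Each of the 4 genes had 1 transcript cluster. Alppl2 was picked because it was much lower in GM501 than in KSOM(aa), so its differences from KSOM(aa) are given as a description with no test, and the other 3 genes were added as members of its family.

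The 36 half-embryos came from 18 B6C3F1 x CD1 embryos with no engineered allele, obtained after hormonal stimulation of the females and 96 h old in culture at lysis. All of them completed the first cleavage in KSOM(aa), a standard medium for mouse embryos with amino acids. The sister blastomeres were then kept apart for 72 h without the zona pellucida, 1 per well. By the sample records each reached a blastocyst of about 40 to 50 cells. For stained twin blastocysts, the authors report fewer cells in KSOM(aa) than in the other media. Both sisters of embryos 1 to 8 stayed in KSOM(aa) (n = 16). One sister of each of embryos 9 to 18 went to GM501 (half-embryos 9a to 18a, n = 10) and the other to SAGE 1-step (9b to 18b, n = 10), which are media made for human assisted reproduction. Each array measured RNA from a whole half-embryo, trophectoderm and inner cells together, so that fewer cells of a type and less RNA per cell cannot be told apart.

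According to the scan names, the arrays of KSOM(aa) and those of the other media belong to separate scan projects, and a difference from KSOM(aa) cannot be told apart from a difference between these array sets. The arrays of embryos 9 to 14 also stood apart from the rest: the log2 signal of Rn18s, the 18S ribosomal RNA, was 17.09 ± 0.42 (SD, n = 12) there, 18.57 ± 0.08 in embryos 15 to 18 (n = 8) and 18.48 ± 0.19 in KSOM(aa) (n = 16). The highest value of embryos 9 to 14, 17.65, lay below the lowest of the others, 17.96. Actb was lower in the same arrays (16.06 ± 0.36 against 17.28 ± 0.15 and 17.26 ± 0.23), and the median signal of the array was higher (5.33 ± 0.12 against 5.00 ± 0.16 and 5.06 ± 0.06). This division of the embryos is known from the signals and not from the labels, so the comparisons with KSOM(aa) below are also given by set of embryos. All 8 trophectoderm markers and all 7 epiblast markers were detected in KSOM(aa), whereas Sox17, a marker of primitive endoderm, was not detected in any medium and Esrrb, an epiblast marker, was not detected in embryos 9 to 14. Of 8 cumulus cell markers, Ptgs2, Ptx3, Amh, Foxl2, Cyp19a1 and Lhcgr were not detected in any medium. Has2 was detected in every medium, and Tnfaip6 in KSOM(aa) and GM501 but not in SAGE 1-step. Between the sets, 6 of the 8 were higher in embryos 9 to 14 and 0 lower, beside 56.2% and 10.4% of all tested clusters. After quantile normalization 1 was higher (Has2) and 2 were lower.

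Alkaline phosphatases are zinc-dependent enzymes that sit on the outer face of the plasma membrane, held by a glycosylphosphatidylinositol (GPI) anchor, and release phosphate from substrates such as inorganic pyrophosphate and the phosphate form of vitamin B6. Alpl encodes the tissue-nonspecific enzyme, which mineralizes bone and stains mouse embryonic stem cells and primordial germ cells. Alppl2 encodes the embryonic enzyme of the mouse, which is expressed in the preimplantation embryo, and its human relatives are the placental and germ cell enzymes. Alpi and Akp3 encode enzymes of the intestinal type, and Akp3 is the duodenal form.

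Alppl2 lies at chr1:87086690-87089928 on the minus strand (mm10, as annotated in the deposited table), next to Alpi at chr1:87098002-87101606 on the same strand and Akp3 at chr1:87124973-87127912 on the plus strand. The 3 genes span 41223 bases, with 8073 bases between Alppl2 and Alpi and 23366 bases between Alpi and Akp3. Alpl lies on another chromosome, at chr4:137741731-137796384 on the minus strand. The promoters of the 3 neighbours on chromosome 1 are shown because these genes sit side by side and yet 1 of them was strongly detected and 2 were not. The 150 bases before a RefSeq start of each gene are given 5′ to 3′ on the strand of the gene (RefSeq, GRCm38.p6, at chr1:87089929-87090078 for Alppl2, chr1:87101607-87101756 for Alpi and chr1:87124804-87124953 for Akp3). RefSeq also extends Alppl2 upstream to position 87095934 through another transcript. Capitals mark every stretch of at least 8 bases that all 3 promoters share.
Alppl2: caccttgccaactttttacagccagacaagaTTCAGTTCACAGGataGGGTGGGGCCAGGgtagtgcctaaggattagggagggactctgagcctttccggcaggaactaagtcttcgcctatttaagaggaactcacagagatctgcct
Alpi: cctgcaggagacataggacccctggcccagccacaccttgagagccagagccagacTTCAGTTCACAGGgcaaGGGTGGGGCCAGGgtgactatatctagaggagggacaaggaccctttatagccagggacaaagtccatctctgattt
Akp3: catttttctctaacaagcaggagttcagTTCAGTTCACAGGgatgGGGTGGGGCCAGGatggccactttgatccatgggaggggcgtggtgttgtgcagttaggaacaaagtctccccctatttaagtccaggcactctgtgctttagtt
The 3 promoters shared 2 stretches of 13 bases in the same order, TTCAGTTCACAGG and GGGTGGGGCCAGG. The first began 119 bases before the start of Alppl2, 94 before Alpi and 122 before Akp3, and the second began 103, 77 and 105 bases before these starts. Searched on both strands in the 250 bases before 32851 mouse gene starts, TTCAGTTCACAGG occurred in 9 promoters (0.0274%) and GGGTGGGGCCAGG in 15 (0.0457%), and neither was in the 2 promoters listed for Alpl. GGGTGGGG alone, which lies inside the second stretch, occurred in 2974 promoters (9.05%), among them 1 of the 2 of Alpl. TATTTAA, a sequence of the TATA box type, lay 30 bases before Alppl2 and 31 bases before Akp3 and was not found before Alpi or Alpl. It was present in 1374 promoters (4.18%). Only this exact sequence was searched, so its absence before Alpi and Alpl does not cover other sequences of the TATA box type. These matches describe the sequence and are not evidence of factor binding.

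A transcript cluster was called detected in a medium where, on 50% or more of its arrays, its signal was over the 90th percentile of that array's 1378 clusters for olfactory or vomeronasal receptors. Alppl2 and Alpl passed this limit and Alpi and Akp3 did not. Alpl was above the limit in 36 of 36 half-embryos, Alppl2 in 35, Alpi in 1 and Akp3 in 0. The log2 signals of Alpi ranged from 4.19 to 4.95 and those of Akp3 from 4.29 to 4.99 over all arrays.

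**Figure D1:**
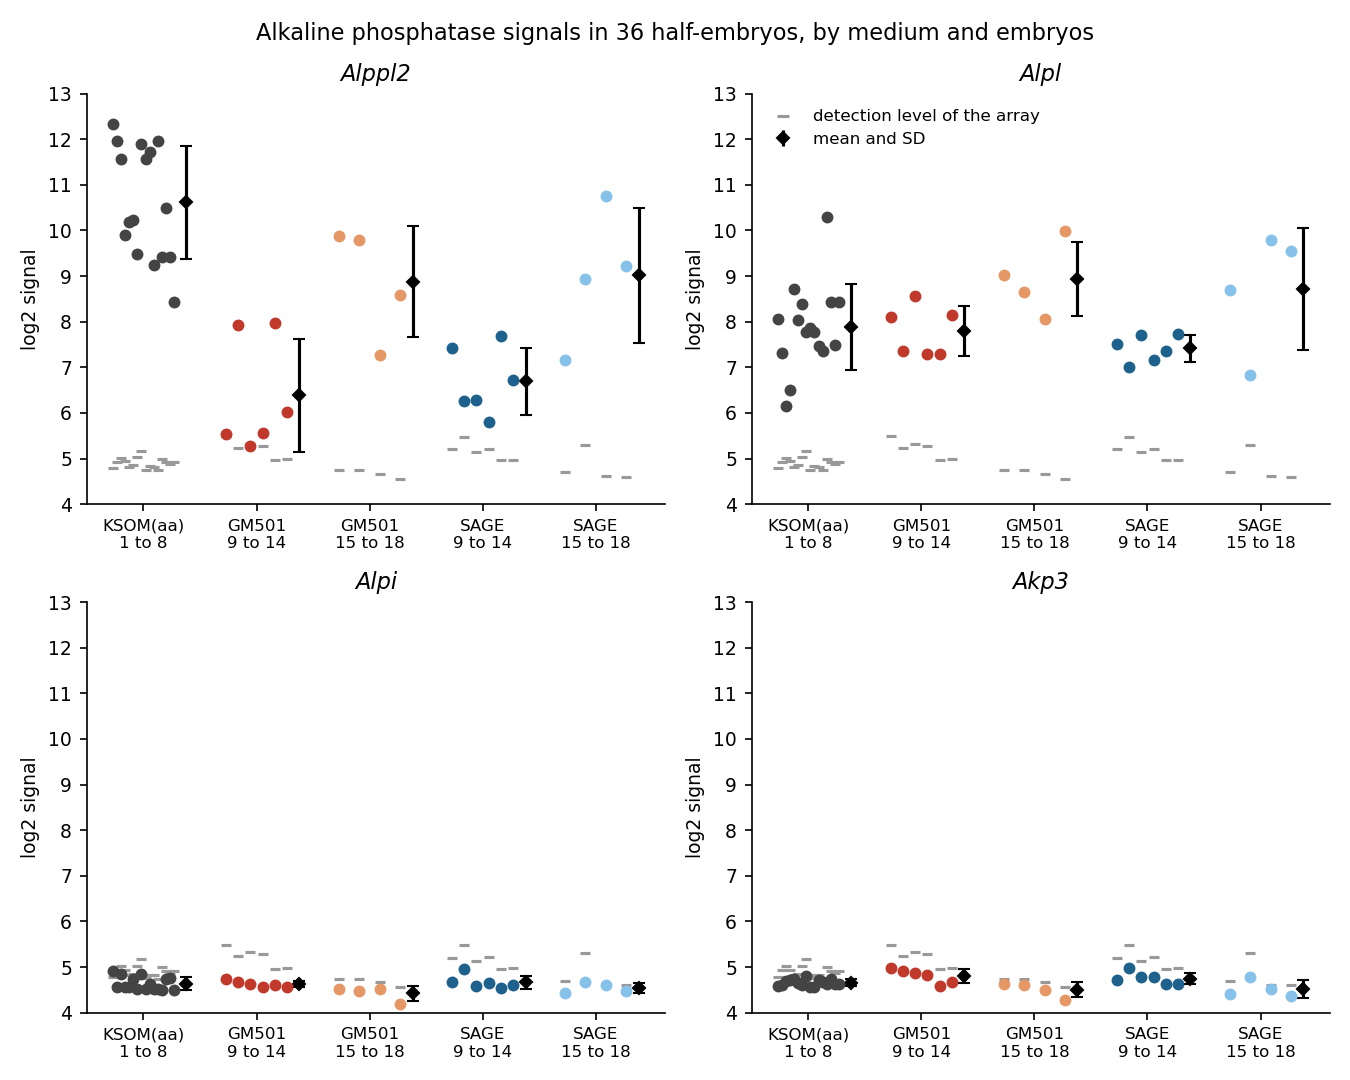
Log2 signal (vertical axis) of each alkaline phosphatase gene in every half-embryo (points), by medium and embryo number (horizontal axis), with the mean and SD of each group (diamonds and bars) and the detection level of each array (grey dashes). Alppl2 spans 8.43 to 12.33 in KSOM(aa) and 5.28 to 7.98 in embryos 9 to 14, whereas Alpi and Akp3 stay between 4.19 and 4.99 throughout.

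Alppl2, the embryonic enzyme, had log2 signals from 8.43 to 12.33 with a median of 10.36 in KSOM(aa) (10.61 ± 1.24, SD, n = 16). In GM501 it ranged from 5.28 to 9.87 with a median of 7.60 (7.38 ± 1.73, n = 10), and in SAGE 1-step from 5.80 to 10.76 with a median of 7.29 (7.63 ± 1.57, n = 10). In each of both media, 7 of 10 half-embryos lay below the lowest half-embryo in KSOM(aa), and only 17b in SAGE 1-step exceeded the median of KSOM(aa). The mean difference from KSOM(aa) was -3.23 on the log2 scale in GM501 (SE 0.57), a ratio of 0.107, and -2.99 in SAGE 1-step (SE 0.57), a ratio of 0.126. For reference, 7.66% of the 40160 transcript clusters tested changed between GM501 and KSOM(aa) at an adjusted p under 0.05 (4.06% higher and 3.6% lower) and 9.55% between SAGE 1-step and KSOM(aa) (5.13% higher and 4.42% lower). Since Alppl2 was chosen from this contrast and both comparisons use the same KSOM(aa) half-embryos, nothing is read from its place among them.

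The size of the Alppl2 difference depended on the embryos. In embryos 9 to 14 the GM501 values were 5.28 to 7.98 with a median of 5.80 and the SAGE 1-step values 5.80 to 7.69 with a median of 6.50 (n = 6 each). All 12 of these half-embryos lay below all 16 in KSOM(aa), as did 1.22% of the tested transcript clusters. At the low end, half-embryo 11a was 0.05 below the detection level of its array and 9a was 0.05 above it. Relative to KSOM(aa), Alppl2 differed by -4.23 in GM501 (SE 0.55) and by -3.92 in SAGE 1-step (SE 0.55) in these embryos, where 50.8% and 44.8% of all clusters changed.

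In embryos 15 to 18, Alppl2 was at 9.87, 9.78, 7.27 and 8.59 in GM501 (15a to 18a) and at 7.15, 8.93, 10.76 and 9.23 in SAGE 1-step (15b to 18b). In each medium 3 of 4 half-embryos fell within the range of KSOM(aa) and 1 below it (17a and 15b). The mean difference from KSOM(aa) was -1.74 in GM501 (SE 0.64, 95% interval -3.03 to -0.44) and -1.60 in SAGE 1-step (SE 0.64, 95% interval -2.89 to -0.30). With the other set of embryos left out of the fit, the GM501 difference was -1.20 without 17a, and the SAGE 1-step difference was -0.97 without 15b and -2.18 without 17b. In these embryos, 0.919% of the transcript clusters changed in GM501 and 1.1% in SAGE 1-step.

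The difference in Alppl2 between the sets of embryos was tested on half-embryos that share a medium. The sets were defined from signals of these arrays, and the GM501 values also served to pick Alppl2. The p-values over both media and in GM501 thus reuse values that chose the gene. Alppl2 was lower in embryos 9 to 14 than in embryos 15 to 18 by 2.40 on average over both media (log2 difference -2.40, SE 0.52, limma, adjusted p = 0.000233). Within GM501 the difference was -2.49 (SE 0.74, adjusted p = 0.00624) and within SAGE 1-step -2.32 (SE 0.74, adjusted p = 0.0159), where 53.7% and 35.1% of all clusters changed. Over both media 66.6% of all transcript clusters changed, 56.2% higher and 10.4% lower in embryos 9 to 14. Its direction was opposite to the median of all tested clusters, which was 0.30 higher in embryos 9 to 14. The ranges of both sets overlapped, with 7.98 as the highest of embryos 9 to 14 and 7.15 as the lowest of embryos 15 to 18. The difference was -2.57 after quantile normalization, -2.74 with each array centred on its median and -1.80 with the arrays scaled to Actb, Gapdh and Hprt, and the adjusted p stayed under 0.05 in each.

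**Figure D2:**
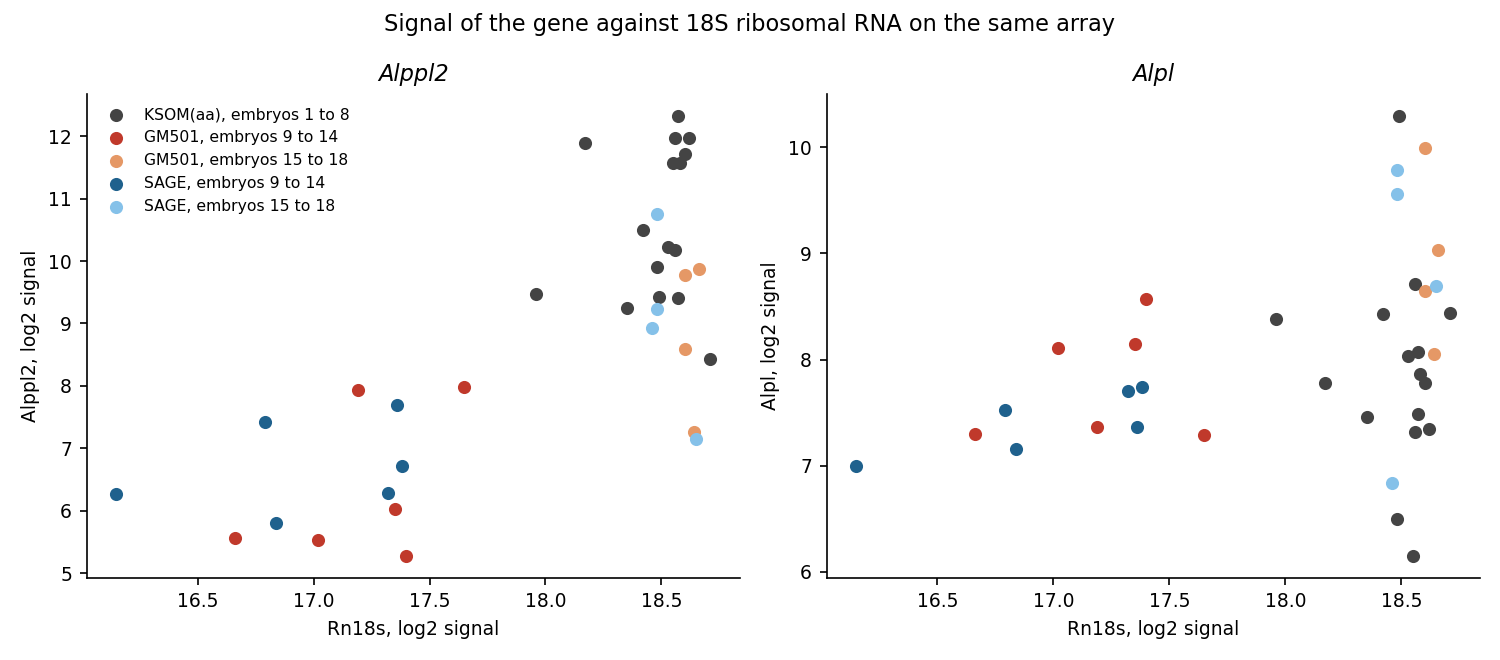
Log2 signal of Alppl2 (left, vertical axis) and Alpl (right, vertical axis) against that of Rn18s on the same array (horizontal axis), 1 point per half-embryo, coloured by medium and embryos. The 12 half-embryos of embryos 9 to 14 form the group at a Rn18s signal of 17.65 or less, and the others, at a Rn18s signal of 17.96 or more, span 7.15 to 12.33 in Alppl2.

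GM501 and SAGE 1-step did not differ measurably in Alppl2. The difference was -0.24 (SE 0.63, 95% interval -1.52 to 1.03, adjusted p = 1), an interval that leaves room for a change of more than 2-fold either way. Blocking on the embryo gave an SE of 0.48 with the same difference, and without embryo 17 the difference was 0.12. The block fit applies 1 correlation between sisters, 0.374, to all clusters. That of Alppl2 itself between these media was -0.31 within the sets, and the differences over the 10 pairs had an SD of 1.77. The smaller SE is thus not read as a gain in precision. No transcript cluster of the 40160 changed between these media (0% called, limma, smallest adjusted p 0.799), 611 had an unadjusted p under 0.05 (1.52%), and a fit with the embryo as a random block called 1. The difference between the media also did not vary measurably with the set of embryos (log2 difference -0.17, SE 1.04, adjusted p = 0.981, 0% of all clusters called).

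Part of the trophectoderm markers was lower in the same arrays. Of the 8 markers, 5 (Eomes, Krt8, Krt18, Tfap2c and Tead4) were lower in GM501 than in KSOM(aa) and the same number in SAGE 1-step, beside 3.6% and 4.42% of all clusters, with medians over the list of -0.56 and -0.65 beside 0.09 and 0.10 for all tested clusters. With scaling to Actb, Gapdh and Hprt only Eomes and Krt8 of the 5 kept their call in each medium, and with the embryo as a random block Tfap2c lost its call in both (adjusted p = 0.0907 and 0.05). Embryos 9 to 14 alone gave 6 lower calls with GM501 and 7 with SAGE 1-step, beside 50.8% and 44.8% of all clusters called. The summed level of the 8 markers, as log2 of the summed linear signals, was 18.58 to 18.98 in KSOM(aa), 17.60 to 18.59 in GM501 and 17.04 to 18.67 in SAGE 1-step. In embryos 15 to 18 none of the 8 passed the test in either medium, and the summed level was 18.41 to 18.59 in GM501 and 17.76 to 18.67 in SAGE 1-step. Between the sets, 5 of the 8 were lower in embryos 9 to 14 and 0 higher, beside 10.4% and 56.2% of all clusters. Of these 5, Krt18 and Tfap2c turned their sign with scaling to Actb, Gapdh and Hprt. Of the 7 epiblast markers, 1 was higher in GM501 (Gdf3, 0.78, adjusted p = 0.0351, or 0.0811 with the embryo as a block and 0.127 after quantile normalization) and 1 lower in SAGE 1-step, which was Pou5f1, the pluripotency factor Oct4 (-1.30, SE 0.29, adjusted p = 0.00426). The Pou5f1 call held under the 3 other scalings (-1.45 to -0.71). Between the sets, 1 epiblast marker was higher and 1 lower in embryos 9 to 14, beside 56.2% and 10.4% of all clusters. Pou5f1 was the lower one (-1.42, SE 0.23, adjusted p = 6.52e-06). Klf2 was the higher one (0.62 with the embryo as a block, adjusted p = 0.00017), and its call was lost with median centring (adjusted p = 0.108). Against KSOM(aa), 2 epiblast markers were higher and 2 lower in GM501 in embryos 9 to 14, 1 and 1 in SAGE 1-step, and none was called in embryos 15 to 18. Of all clusters, 50.8% and 44.8% were called in embryos 9 to 14, and 0.919% and 1.1% in embryos 15 to 18. Of the 6 primitive endoderm markers, 0 were called in GM501 or in SAGE 1-step against KSOM(aa). Between the sets, 1 of them was higher and 2 were lower in embryos 9 to 14, beside 56.2% and 10.4% of all clusters. The part of these cell types in the Alppl2 signal was not tested.

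**Figure D3:**
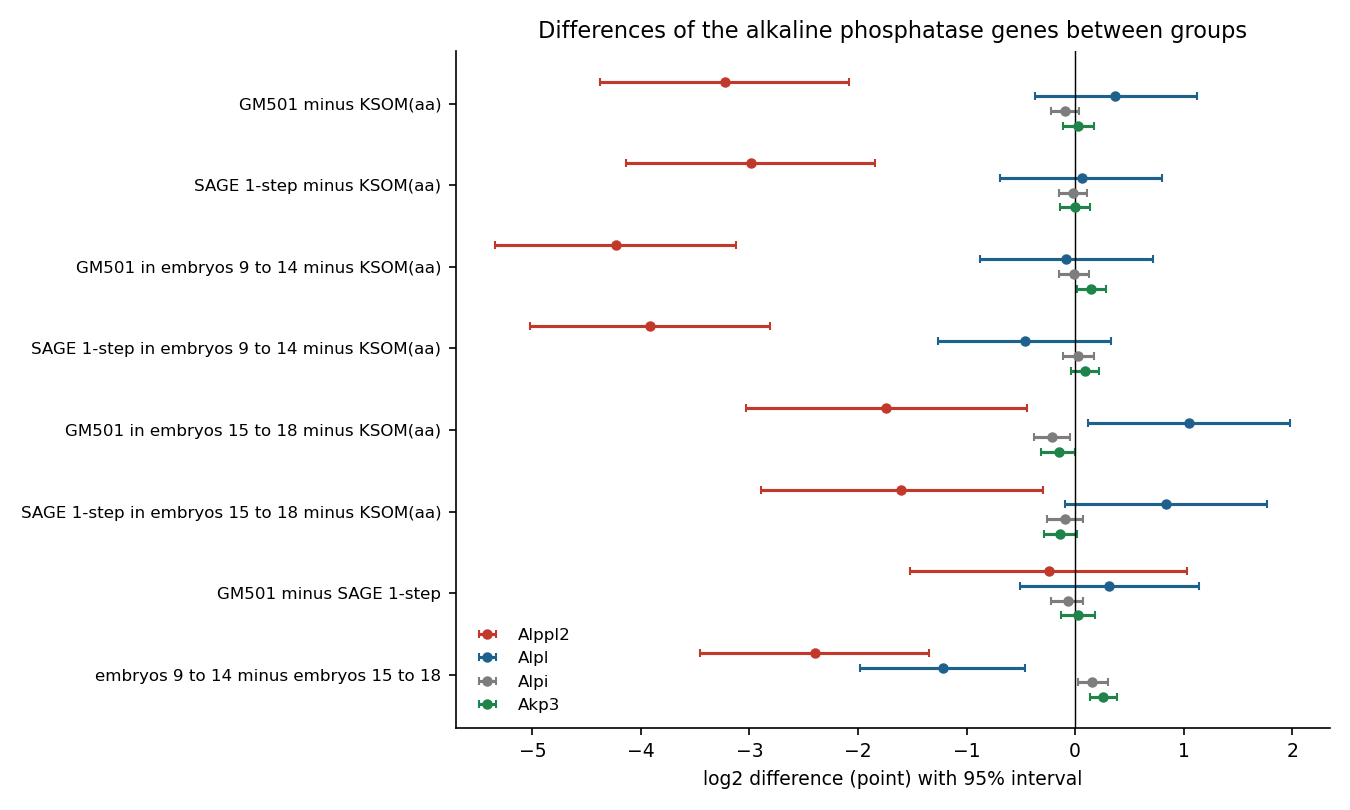
Log2 difference (points) with its 95% interval (bars) of each alkaline phosphatase gene, on the horizontal axis, for 8 comparisons of media and embryos. The Alppl2 intervals against KSOM(aa), shown as a description, run from -4.38 to -2.08 for GM501 and from -4.14 to -1.84 for SAGE 1-step, whereas those of Alpl include 0 in both.

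Alpl, the tissue-nonspecific enzyme, showed no called difference from KSOM(aa). Its log2 signals in KSOM(aa) ranged from 6.15 to 10.30 with a median of 7.82 (7.88 ± 0.94, n = 16), in GM501 from 7.29 to 9.99 with a median of 8.13 (8.25 ± 0.86, n = 10) and in SAGE 1-step from 6.84 to 9.79 with a median of 7.61 (7.94 ± 1.05, n = 10). The 3 media overlapped almost entirely, and no half-embryo in GM501 or SAGE 1-step lay below the lowest in KSOM(aa). Against KSOM(aa) the difference was 0.37 in GM501 (SE 0.37, 95% interval -0.37 to 1.12, adjusted p = 0.539) and 0.06 in SAGE 1-step (SE 0.37, 95% interval -0.69 to 0.80, adjusted p = 0.929). Scaling to Actb, Gapdh and Hprt, under which the median difference of all tested clusters was 0.61, gave 0.89 for GM501 (adjusted p = 0.0169). The difference between GM501 and SAGE 1-step was 0.31 (SE 0.41, adjusted p = 1).

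In embryos 15 to 18, Alpl was at 9.03, 8.65, 8.05 and 9.99 in GM501 and at 8.69, 6.84, 9.79 and 9.56 in SAGE 1-step. All 4 of the former and 3 of 4 of the latter lay above the median of KSOM(aa), but the differences did not pass the test (1.05, SE 0.46, adjusted p = 0.241, and 0.84, SE 0.46, adjusted p = 0.415). In embryos 9 to 14 the values were 7.29 to 8.57 in GM501 and 7.00 to 7.74 in SAGE 1-step, and the differences from KSOM(aa) were -0.08 (SE 0.39, adjusted p = 0.876) and -0.46 (SE 0.39, adjusted p = 0.335). Alpl was lower in embryos 9 to 14 than in embryos 15 to 18 (-1.22, SE 0.37, adjusted p = 0.00539, where 10.4% of all clusters were lower). This call did not hold without embryo 18 (-0.90, adjusted p = 0.0534) or with scaling to Actb, Gapdh and Hprt (-0.62, adjusted p = 0.118). Within GM501 alone the adjusted p was 0.068 and within SAGE 1-step 0.0521.

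Alpi and Akp3, the intestinal enzymes, stayed close to the detection level in all media. Alpi averaged 4.64 ± 0.14 in KSOM(aa), 4.55 ± 0.15 with GM501 and 4.62 ± 0.14 with SAGE 1-step, and its only value above the detection level, in half-embryo 1a, exceeded it by 0.12. Akp3 averaged 4.66 ± 0.07, 4.69 ± 0.21 and 4.66 ± 0.19. None of the 4 differences from KSOM(aa) passed the test, and they ranged from -0.09 to 0.03. By set of embryos they ranged from -0.21 (Alpi in GM501, embryos 15 to 18, adjusted p = 0.192) to 0.15 (Akp3 in GM501, embryos 9 to 14, adjusted p = 0.0542), again with no call. Fitted without embryos 15 to 18, the latter had an adjusted p of 0.0359. After quantile normalization and median centring, Alpi was lower in GM501 (-0.21 and -0.22, adjusted p = 0.0182 and 0.0131) and Akp3 in SAGE 1-step (-0.14 in both, adjusted p = 0.0141 and 0.0114), whereas with scaling to Actb, Gapdh and Hprt both genes were higher in both media (0.43 to 0.59). In embryos 9 to 14 Akp3 was 0.26 higher than in embryos 15 to 18 (SE 0.06, adjusted p = 0.00053) and Alpi 0.16 higher (SE 0.07, adjusted p = 0.0315, or 0.0553 with the embryo as a random block), next to a shift of 0.30 in the median of all tested clusters. Both differences turned their sign under quantile normalization and median centring.

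The neighbours of Alppl2 were compared in the same way. Within 250 kb there were 11 other transcript clusters with a symbol besides Alpi and Akp3, 5 of them detected. Among these 11, 0 changed between GM501 and KSOM(aa), with differences from -0.21 to 0.39, beside 7.66% of all clusters, and in SAGE 1-step only Prss56, a serine protease gene that was not detected, passed the test (0.18, SE 0.06, adjusted p = 0.0489, or 0.0712 with the embryo as a random block), beside 9.55%. Against KSOM(aa), embryos 9 to 14 gave 3 higher and 1 lower call with GM501 (Eif4e2, -0.36, adjusted p = 0.0294) and 6 higher and 0 lower with SAGE 1-step, with differences from -0.36 to 0.89 in both, beside 50.8% and 44.8% of all clusters. None was called in embryos 15 to 18, with differences from -0.36 to 0.37. Dis3l2, an exoribonuclease gene, differed by -0.15 (SE 0.21, adjusted p = 0.673) and -0.03 (SE 0.21, adjusted p = 0.93). Eif4e2, a cap-binding protein gene, differed by -0.21 (SE 0.13, adjusted p = 0.293) and -0.30 (SE 0.13, adjusted p = 0.127). Between the sets of embryos 6 of the 11 were higher in embryos 9 to 14 and 0 lower, beside 56.2% and 10.4% of all clusters, and none of the 6 was a detected gene.

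Alppl2 varied more between half-embryos than most detected genes did. Its SD was 1.24 in KSOM(aa), 1.73 with GM501 and 1.57 with SAGE 1-step, where the median SD of the 22878 detected clusters was 0.35, 0.47 and 0.48. Of these clusters, 97.6%, 99.1% and 98.1% had a smaller SD. The values of GM501 and SAGE 1-step include the difference between the sets of embryos: within embryos 9 to 14 the SD was 1.24 and 0.73 in these media, and within embryos 15 to 18 it was 1.22 and 1.48. In linear signal the highest half-embryo in KSOM(aa) exceeded the lowest by 14.9 times. Alpl had an SD of 0.94, 0.86 and 1.05, larger than that of 95.1%, 86.9% and 92.5% of the detected clusters. Within KSOM(aa), Alppl2 averaged 11.08 ± 1.02 in embryos 1 to 5 (n = 10) and 9.83 ± 1.24 in embryos 6 to 8 (n = 6), with overlapping ranges.

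Sister half-embryos were not measurably more alike in Alppl2 than half-embryos of different embryos. In KSOM(aa) the signals of both sisters were 12.33 and 11.97 in embryo 1, 11.57 and 9.91 in embryo 2, 10.18 and 10.22 in embryo 3, and 9.48 and 11.89 in embryo 4. They were 11.57 and 11.72 in embryo 5, 9.25 and 11.97 in embryo 6, 9.42 and 10.50 in embryo 7, and 9.41 and 8.43 in embryo 8. Sisters thus differed by as little as 0.04 and as much as 2.72, a ratio of 6.59 between the blastocysts of embryo 6, with a median difference of 1.03. The intraclass correlation, which is 1 where sisters are identical and 0 where they are no more alike than others, was 0.27 over the 8 pairs (F-test of the embryo in limma, adjusted p = 0.471), beside a median of 0.18 over detected clusters. Only 0.187% of all clusters passed this test.

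Between GM501 and SAGE 1-step, the sisters of embryos 9 to 18 differed in Alppl2 by 0.24 to 3.49 with a median of 0.92. GM501 had the higher signal in 4 pairs and SAGE 1-step in 6. The largest gap was in embryo 17, with 7.27 in GM501 and 10.76 in SAGE 1-step, a ratio of 11.2. Embryo 15 differed the other way, with 9.87 in GM501 and 7.15 in SAGE 1-step, a ratio of 6.59. The intraclass correlation within the sets of embryos was -0.31 (adjusted p = 0.779, 0.61% of all clusters called).

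**Figure D4:**
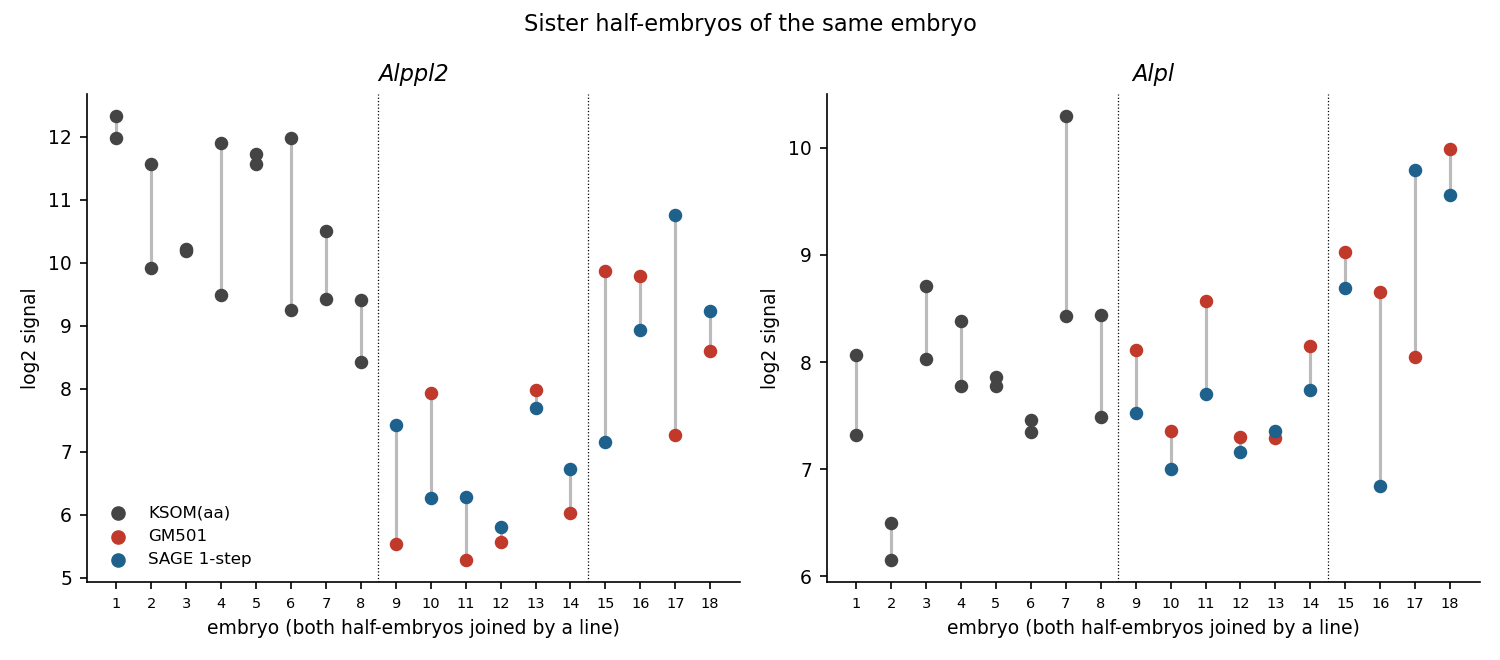
Log2 signal (vertical axis) of Alppl2 (left) and Alpl (right) in both half-embryos of each of 18 embryos (horizontal axis), joined by a line and coloured by medium; dotted lines separate embryos 1 to 8, 9 to 14 and 15 to 18. The gap between sisters in Alppl2 runs from 0.04 in embryo 3 to 3.49 in embryo 17, and in Alpl from 0.07 in embryo 13 to 1.87 in embryo 7.

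Sisters were closer in Alpl, although this likeness did not pass the test over all genes either. In KSOM(aa) they differed by 0.08 to 1.87 with a median of 0.64, and 7 of 8 pairs differed by less than 1. Both sisters of embryo 2 were low (6.15 and 6.50) and those of embryo 7 were high (10.30 and 8.43). The intraclass correlation was 0.60 (unadjusted p = 0.0106, adjusted p = 0.265 in limma). In embryos 9 to 18 it was 0.25 (adjusted p = 0.447), and 8 of 10 pairs differed by less than 1. GM501 had the higher Alpl signal in 8 of these 10 pairs, with a mean difference of 0.31 ± 0.88 (SD), which the test between these media above did not call.

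After the mean of each medium and set of embryos was subtracted, the genes most like Alppl2 over the 36 half-embryos, of 21294 detected clusters with 1 symbol, were Gpr137b, a lysosomal membrane protein gene (Pearson r = 0.68), Cul4b, a ubiquitin ligase scaffold (0.65), Slc5a11, a sodium-coupled inositol transporter (0.64), the predicted gene Gm5601 (0.62) and Reep1, which shapes the endoplasmic reticulum (0.62). These correlations are descriptions with no test and are the highest of many. The arrays include both sisters of every embryo, and which of them share a normalization is not given. The same measure gave -0.16 between Alppl2 and Alpl. The gene most like Alpl was LOC100862140 (0.75), which lies at chr4:137735845-137742640 on the plus strand and overlaps the end of Alpl on the opposite strand, so that its signal may not be independent of Alpl. It was followed by Paip2b, a regulator of poly(A)-binding protein (0.72), Rps6ka3, a ribosomal S6 kinase (0.70), Tbc1d2, a Rab GTPase activator (0.68), and Fbxo21, an F-box protein (0.68).

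The genes that make, attach and remodel the GPI anchor changed in both directions. Of 27 measured, 1 was higher and 3 were lower in GM501 than in KSOM(aa), and 3 were higher and 5 lower in SAGE 1-step, beside 7.66% and 9.55% of all clusters called, with medians over the list of 0.08 and 0.04 beside 0.09 and 0.10 for all clusters. These counts depended on the scaling. They were 17 higher and 1 lower in GM501 and 16 and 2 in SAGE 1-step with scaling to Actb, Gapdh and Hprt. Under it 79.1% and 84.3% of all clusters were called, 98.4% and 98.5% of them higher. After quantile normalization the counts were 0 and 5 and 2 and 6, beside 11% and 12.1% of all clusters called. Embryos 9 to 14 alone had 8 higher and 7 lower calls with GM501 and 7 and 7 with SAGE 1-step, beside 50.8% and 44.8% of all clusters called. Pigt, a subunit of the transamidase that joins the anchor to proteins, differed by -1.17 (SE 0.27, adjusted p = 0.00733) and -1.51 (SE 0.27, adjusted p = 0.00077). Pigs, of the same complex, was lower in both media, and Gpaa1, another subunit, was lower in SAGE 1-step (-1.11, SE 0.28, adjusted p = 0.00956). Pigf, which serves in the addition of ethanolamine phosphate, was higher in both (0.86 and 0.94, adjusted p = 0.0338 and 0.0167). Pigq, the remaining gene called in GM501 (-0.41), turned its sign with scaling to Actb, Gapdh and Hprt (0.11) and lost its call with the embryo as a random block (adjusted p = 0.0871). The Pigs calls were lost under that scaling (-0.11 and -0.04), and that of Pigf in GM501 after quantile normalization (adjusted p = 0.0519). In embryos 15 to 18 only Pgap1, an anchor remodelling enzyme, passed the test, in GM501 (2.43, SE 0.62, adjusted p = 0.0456, or 0.0617 after quantile normalization and 0.0542 with the embryo as a block), and Pigt was at -0.23 and -0.81 with no call.

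Among 12 genes of pyrophosphate and phosphate handling, 2 were lower in each medium and 0 higher, beside 7.66% and 9.55% of all clusters called. With scaling to Actb, Gapdh and Hprt, 7 were higher and 2 lower in GM501 and 6 and 2 in SAGE 1-step. Under it 79.1% and 84.3% of all clusters were called, 98.4% and 98.5% of them higher. With embryos 9 to 14 alone, 1 was higher and 4 lower in GM501 and 2 and 4 in SAGE 1-step, beside 50.8% and 44.8% of all clusters called. Slc34a2, a sodium-phosphate cotransporter, differed by -2.08 in GM501 (SE 0.37, adjusted p = 0.000794) and by -2.56 in SAGE 1-step (SE 0.37, adjusted p = 9.6e-05). Ank, which carries pyrophosphate out of the cell and so supplies a substrate of alkaline phosphatase, differed by -1.65 (SE 0.38, adjusted p = 0.00613) and -1.55 (SE 0.38, adjusted p = 0.00791). Both genes kept these directions and calls under all 3 other scalings. Neither passed the test in embryos 15 to 18. Slc34a2 was at -1.12 (SE 0.36, adjusted p = 0.129) and -1.36 (SE 0.36, adjusted p = 0.0567) there and Ank at -0.28 and -0.20, whereas Slc20a2, another phosphate transporter, was higher in GM501 (1.64, SE 0.35, adjusted p = 0.0146). Of 4 genes of vitamin B6 phosphate handling, Pdxk, pyridoxal kinase, was lower in both media (-1.54 and -1.58, SE 0.28 each, adjusted p = 0.000916 and 0.000511), and in embryos 15 to 18 it was at -0.86 and -0.96 with no call. Among these genes, embryos 9 to 14 gave 4 lower calls with GM501 and 2 with SAGE 1-step, beside the same 50.8% and 44.8%. None of the 3 zinc transporters that load alkaline phosphatases in the secretory pathway (Slc30a5, Slc30a6 and Slc30a7) passed the test in either medium or in either set of embryos against KSOM(aa). With scaling to Actb, Gapdh and Hprt 2 rose with GM501 and 1 rose with SAGE 1-step, beside 79.1% and 84.3% of all clusters called.

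Genes of other proteins held by a GPI anchor were also compared. Of 24 measured, 3 were higher and 3 lower in GM501, and 4 were higher and 3 lower in SAGE 1-step, with medians of 0.12 and -0.02, beside 7.66% and 9.55% of all clusters called. With scaling to Actb, Gapdh and Hprt, 16 were higher and 1 lower in GM501 and 14 and 0 in SAGE 1-step. Under it 79.1% and 84.3% of all clusters were called, 98.4% and 98.5% of them higher. For these genes, embryos 9 to 14 had 9 higher and 5 lower calls with GM501 and 6 and 3 with SAGE 1-step. In these embryos 50.8% and 44.8% of all clusters were called. Car4, a membrane-bound carbonic anhydrase, was higher in both (2.15, SE 0.46, adjusted p = 0.00399, and 1.82, SE 0.46, adjusted p = 0.0106). The complement regulators Cd55 (1.15 and 1.10) and Cd59a (1.58 and 1.42) were higher as well. The ephrins Efna3 (-0.85 and -0.86) and Efna4 (-0.94 and -0.85) were lower in both, and Efna1 in GM501 (-1.53). The calls of Efna3 and Efna4 were lost with scaling to Actb, Gapdh and Hprt. In embryos 15 to 18 Efna1 was lower in GM501 (-2.11, SE 0.50, adjusted p = 0.0319) and Efna3 in SAGE 1-step (-0.90, SE 0.22, adjusted p = 0.0384), which median centring moved to an adjusted p of 0.0591 and 0.0755 (0.0584 for Efna3 with the embryo as a block), and Car4 was at 1.85 and 1.64 with no call.

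Between the sets of embryos, where 66.6% of all clusters were called, many members of these lists changed. Of the GPI anchor genes 8 were higher and 8 lower in embryos 9 to 14, of the phosphate genes 3 and 5, of the vitamin B6 genes 0 and 3, of the zinc transporters 0 and 1, and of the other GPI-anchored proteins 10 and 3. Ank had the smallest adjusted p of these lists (-2.27, SE 0.21, adjusted p = 2.51e-10). Ly6a, a GPI-anchored surface antigen, was 2.59 higher in embryos 9 to 14 (SE 0.62, adjusted p = 0.000616). Of all clusters, 30.6% were called after quantile normalization (51.4% of them higher) and 32.1% with median centring (34.9% of them higher). With scaling to Actb, Gapdh and Hprt 86.5% were called, 96.2% of them higher. Under it, 15 of the 27 GPI anchor genes were called higher and 4 lower, and 4 (Pigv, Pigb, Pigs and Pgap2) turned their sign. The other GPI-anchored proteins were 18 higher and 0 lower under that scaling, where Prnp and Efna4 turned, and 2 and 5 after quantile normalization, where Gpc2, Gpc6 and Efna5 turned. The phosphate genes were 5 and 4 under that scaling, 1 and 6 after quantile normalization and 1 and 8 with median centring, where Slc34a3 turned. The vitamin B6 genes and zinc transporters were 1 higher and 0 lower each with scaling to Actb, Gapdh and Hprt.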

How the data were processed

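RNA of 36 single half-embryos was amplified and labelled with the WT Pico kit and hybridized to Affymetrix MTA-1_0 arrays, 1 array per half-embryo. The authors computed the deposited log2 values with the Affymetrix Expression Console (Signal Space Transformation with robust multiarray averaging, mm10 annotation), from 2.09 to 19.17. Which arrays entered one normalization is not given in the sources used here. In the deposited table the values of half-embryo 1a could be taken as a score, since 1 of them is impossible as a log2 signal. The authors computed these possible score values with the Affymetrix Expression Console before they were deposited, as for the other arrays. The transcript cluster of the impossible value was dropped from every array, and the other values of 1a were used as log2 signals. Both deposited tables held the same values.

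Comparisons of groups used limma 3.58.1 under R 4.3.3 (trended prior variance, 2-sided, Benjamini-Hochberg over 40160 transcript clusters with a symbol, threshold 0.05), in 1 fit by medium and 1 by medium and set of embryos. Separate cultures are given for each half-embryo, but sisters share an embryo by the labels. Their deviations from the group means correlated by 0.19 on average over 18 pairs (0.01 to 0.40, and over 0.1 in 13). The mean over 154 pairs of non-sisters, all within the same group, was -0.12. Subtracting a group mean itself makes correlations within that group negative, whereas sisters in different media lie in different groups. The -0.12 is thus not read as a baseline for sisters. Among the 4 genes, the embryo as a block changed only the call of Alpi between sets. List and neighbour calls that it ended are given with the results or in the closing section. Intervals are 95%. Array number limits the precision. Python 3.11.15, numpy 2.4.6, pandas 2.3.3 and matplotlib 3.10.9 were used, and the fit was tested on simulated data.

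The genes, lists and sets of embryos were chosen with earlier results of these data known, so no list is independent evidence. Named are the 4 genes, the 5 genes most like Alppl2 and Alpl, neighbours within 250 kb and, per list, at most 4 genes by smallest adjusted p. List genes given for embryos 15 to 18, Pigs, Pigq, Efna1, Slc20a2, Pgap1 and Ly6a among them, were chosen after their values were seen, as were the motifs GGGTGGGG and TATTTAA. Lists under other scalings, with the embryo as a block and by set of embryos were added after the data were seen. Alternatives were other scalings, filters, blocks, fits and subsets of arrays.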

Additional observations from a re-analysis of the deposited data

Results flagged for a closer look

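In 4 of 24 groups tested (4 genes in 6 groups, some of which overlap), 1 half-embryo lay far from the rest, which chance gives in about 1 group in 20. All 4 concern Alpi below the detection level. In GM501, half-embryo 18a was the lowest at 4.19, next to 4.48, both over all 10 half-embryos and within embryos 15 to 18. In SAGE 1-step, half-embryo 10b was the highest at 4.95, next to 4.68 over all 10 and 4.67 within embryos 9 to 14.

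The difference of a medium from KSOM(aa) changed with the set of embryos, tested as embryos 9 to 14 minus embryos 15 to 18 (limma, adjusted p). For Alppl2 it was -2.40 over both media (0.000233), -2.49 in GM501 (0.00624) and -2.32 in SAGE 1-step (0.0159). Of all clusters, 66.6%, 53.7% and 35.1% were called in these comparisons. The Alppl2 ranges of both sets overlapped, with 7.98 as the highest of embryos 9 to 14 and 7.15 as the lowest of embryos 15 to 18. For Alpl it was -1.22 (0.00539). For Akp3 it was 0.26 (0.00053), 0.30 in GM501 (0.00561) and 0.23 in SAGE 1-step (0.042), and for Alpi 0.16 (0.0315), where the median of all tested clusters moved by 0.30. The labels do not say what sets these embryos apart, and the part of the lower Rn18s and Actb signals in these differences was not tested. The GM501 values of Alppl2 also served to pick that gene.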

How the results depend on the processing

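Of 306 alternative values of tested results for the 4 genes, 261 kept direction and side of the threshold, 47 of 48 for Alppl2, 82 of 90 for Alpl, 72 of 84 for Alpi and 60 of 84 for Akp3. Those of Alppl2 between the sets reuse GM501 values that served to pick the gene, so they are not independent evidence. The 42 alternatives for Alppl2 against KSOM(aa), which has no test, ranged from -4.23 to -0.97. Scaling to Actb, Gapdh and Hprt gave a median of all clusters of 0.61 (GM501), 0.69 (SAGE 1-step) and 0.91 (sets of embryos), against 0.09, 0.10 and 0.30. It gave Alpl 0.89 in GM501 and -0.62 between sets, Alpi 0.43 and 0.57 and Akp3 0.55 and 0.59 in GM501 and SAGE 1-step against KSOM(aa), and Akp3 -0.04 between these media. Quantile normalization and median centring, in this order, gave Akp3 -0.10 and -0.10 in GM501, -0.14 and -0.14 in SAGE 1-step and -0.08 and -0.07 between sets, Alpi -0.21 and -0.22 in GM501 and -0.17 and -0.17 between sets (adjusted p 0.0346 and 0.0235), and Alpl -0.08 and -0.08 in SAGE 1-step. The robust fit gave Alpl -0.08 and Akp3 0.01 in SAGE 1-step. With embryos 9 to 14 only, Alpl was -0.08 in GM501 and -0.46 in SAGE 1-step, Akp3 0.15 and 0.09, and Alpi 0.03 in SAGE 1-step. With embryos 15 to 18 only, Akp3 was -0.15 in GM501 and -0.01 between the media. With embryos 1 to 5 only in KSOM(aa), Akp3 was 0 in SAGE 1-step. The embryo as a random replicate block gave Alpi 0.16 between sets (adjusted p 0.0553) and changed no other call of the 4 genes. It also ended the calls of Pigw (0.0617), Pigo (0.0898) and Folr1 (0.0529) in SAGE 1-step, of Pigb (0.0649), Cd55 (0.0542), Gata4 (0.0676), Slc30a7 (0.0781), the cluster of Prnp (0.0735) and Efhd1os (0.0793) between sets, and of Pigb (0.0563) in SAGE 1-step, embryos 9 to 14. Over all clusters it gave 2092 calls in GM501 and 2729 in SAGE 1-step.

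Leaving out 1 embryo gave -0.57 to 0.12 for Alppl2 between the media, -2.66 to -2.23 for Alppl2, -1.58 to -0.90 for Alpl and 0.11 to 0.19 for Alpi between sets. The Alpi call was lost without embryo 9, 10, 15 or 18. Leaving out 1 half-embryo of embryos 15 to 18 gave Alppl2 -2.07 to -1.20 in GM501 (-1.20 without 17a, -1.64 without 18a) and -2.18 to -0.97 in SAGE 1-step, and Akp3 -0.20 to -0.08 in GM501 (-0.19 without 16a) and -0.23 to -0.09 in SAGE 1-step (-0.23 without 16b, adjusted p 0.049).

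Calls over all clusters moved more. For GM501 (3076) and SAGE 1-step (3836), in this order, they were 591 and 743 with sisters in KSOM(aa) averaged, 834 and 1117 with embryos 1 to 5 only in KSOM(aa), 5207 and 6818 with the robust fit, 31777 and 33859 with scaling to Actb, Gapdh and Hprt (98.4% and 98.5% higher, against 53.1% and 53.8%), and 277 and 294 with embryos 15 to 18 only, from 51 without 17a to 1266 without 16b and from 105 without 17b to 2546 without 16b. With embryos 9 to 14 only they were 20901 and 18672. Median centring left 27.6% and 26.3% of the calls higher and quantile normalization 27.2% and 27.4%. Between the sets (26760, 84.4% higher) they were 12307 after quantile normalization (51.4%), 12876 after median centring (34.9%), 13577 over detected clusters (70.4%) and 42316 over all clusters, and scaling to Actb, Gapdh and Hprt left 96.2% higher. The causes were not tested. No gene had another transcript cluster to try.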
